A study of Rattus norvegicus with 16 samples.

Results

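Nfkbia and 9 further genes of the NF-kappa-B pathway (Nfkbib, Nfkb1, Nfkb2, Rela, Relb, Ikbkb, Traf6, Tnfaip3 and Icam1) were followed across brain libraries, from hypothalamus and hippocampus, of male Sprague Dawley rats. The genes were picked by symbol, and the locus with the highest mean was used where a symbol had several. Of the 10 listed symbols, 6 were matched in the hypothalamus table, which holds 16183 symbols, and 7 in the hippocampus table, which holds 16223. Nfkb1, Relb and Tnfaip3 were matched in neither table, Icam1 was matched in hippocampus only, and these genes are otherwise not analysed here. All matched genes had a mean of at least 1 FPKM (fragments per kilobase of transcript, scaled by the number of mapped fragments, a measure scaled for gene length and library depth). Nfkbia drew attention because its hypothalamic values in fructose libraries all lay below those in control libraries, so the hypothalamic values of the 10 genes are a description and carry no test.

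The groups were hypothalamus and hippocampus of rats given fructose for 6 weeks, and the same regions of untreated rats. All groups share sex and strain. The labels list 4 samples per group and the tables hold 15 libraries, 3 fructose and 4 control for hypothalamus and 4 of each for hippocampus; fructose replicate 4 of hypothalamus is not analysed here. The labels give neither the age of the rats, nor the dose or route of fructose, nor whether samples came from different animals, so p-values measure only the spread between these samples, which may be technical.

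NF-kappa-B is a family of paired transcription factors, among them Rela, and the products of Nfkb1 and Nfkb2, that IkappaB proteins such as those encoded by Nfkbia and Nfkbib hold in the cytoplasm. Signals from receptors for tumour necrosis factor, interleukin-1 and microbial products run through adaptors such as Traf6 to the IkappaB kinase, whose catalytic beta subunit is Ikbkb; phosphorylated IkappaB is destroyed and the factors enter the nucleus. Nfkbia and Tnfaip3 are themselves switched on by NF-kappa-B and close a negative feedback loop, and Icam1 is an adhesion molecule of activated endothelium and a textbook target. In brain the pathway is active in endothelial cells, microglia, astrocytes and neurons.

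In each region the libraries numbered replicate 1, fructose and control, stood apart from the rest. On log2(FPKM + 1) the replicate 1 pair correlated across loci at r = 0.99 in hypothalamus and 0.992 in hippocampus, against 0.949 to 0.961 and 0.93 to 0.955 with the other libraries, which reached 0.981 to 0.99 and 0.971 to 0.991 among themselves. Every group holds 1 such library. Summed FPKM per library ran from 435105 to 492778 in hypothalamus and from 353703 to 402099 in hippocampus, and read depth is unknown because the tables hold no counts. The tissue labels were met by their markers. The 7 hypothalamic peptide genes listed (Hcrt, Pmch, Agrp, Pomc, Oxt, Avp and Trh) summed to 3296 to 8897 FPKM per hypothalamus library. Per hippocampus library they summed to 3.68 to 28.4 FPKM. Only fructose replicate 1 reached the top of this range, and the next highest sum was 8.83 FPKM in control replicate 3. Fructose replicate 1 also had the highest hippocampal Nfkbia value, and any link between these values was not tested. The hippocampal genes matched (4 of 5 in the hippocampus table, 5 of 5 in that of hypothalamus) summed to 139 to 291 FPKM in hippocampus and to 24.4 to 41.2 FPKM in hypothalamus, with Fibcd1 at 0 throughout. The tables were normalised separately, so levels set across regions are only approximate.

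Promoter sequence is shown for Nfkbia and Nfkb2 because both genes are known targets of the pathway they belong to and had the most negative hypothalamic log2 fold changes among the 6 genes. The sequences come from RefSeq (build GRCr8, not the rn5 build of the expression data) and span 250 bases before to 50 bases after the annotated start, read 5′ to 3′ on the gene's strand. Capitals mark matches to GGANNTTCC, a spelling of the core of the NF-kappa-B binding motif, or to its reverse complement GGAANNTCC, and the motif was chosen with the sequences in view. The Nfkbia promoter lies at chr6:78597023-78597322 on the minus strand and that of Nfkb2 at chr1:255108124-255108423 on the plus strand.
Nfkbia: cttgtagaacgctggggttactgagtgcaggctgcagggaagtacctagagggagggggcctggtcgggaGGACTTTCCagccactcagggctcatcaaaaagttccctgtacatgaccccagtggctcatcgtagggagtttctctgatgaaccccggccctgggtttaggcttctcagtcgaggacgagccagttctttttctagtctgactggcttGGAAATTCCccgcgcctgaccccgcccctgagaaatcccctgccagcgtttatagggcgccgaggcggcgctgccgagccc
Nfkb2: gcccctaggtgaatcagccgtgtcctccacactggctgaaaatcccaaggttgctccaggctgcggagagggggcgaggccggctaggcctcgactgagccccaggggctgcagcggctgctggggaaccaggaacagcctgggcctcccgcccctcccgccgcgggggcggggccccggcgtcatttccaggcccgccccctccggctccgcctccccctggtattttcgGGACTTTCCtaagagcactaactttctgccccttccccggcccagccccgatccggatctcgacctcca
The Nfkbia window holds 2 matches. The match farther from the start, GGACTTTCC, covers positions -180 to -172 and the nearer, GGAAATTCC, which reads as a match on both strands, positions -31 to -23. The Nfkb2 window holds 1, GGACTTTCC again, at -19 to -11. Of the 7 listed genes with a promoter in the table, 5 held a match (Nfkbia, Nfkb1, Nfkb2, Tnfaip3 and Icam1), while Rela and Nfkbib held none. Among all 33469 promoters of 300 bases, 4.09% held at least 1 match and 0.117% held 2 or more. Because the motif was chosen with the sequences in view, the matches in the listed genes cannot be weighed against these shares.

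Nfkbia, the inhibitor IkappaB-alpha, was lower in the hypothalamus of fructose rats at a little over 0.5 times the control level. It was at 15.6, 20.5 and 22.0 FPKM in fructose replicates 1 to 3, against 37.3, 33.4, 33.7 and 36.8 FPKM in control replicates 1 to 4. The highest fructose library lay well under the lowest control library, and the control libraries were close to each other. The means were 19.4 ± 3.40 FPKM in fructose (SD, n = 3) and 35.3 ± 2.04 FPKM in control (SD, n = 4). The log2 fold change of FPKM + 1 was -0.85 ± 0.14 (SE of the limma model), or 0.557 times. Nfkbia was chosen for this difference, so it carries no test. Groups that do not overlap, with fructose lower, were found for 182 of 11498 loci tested in hypothalamus, or 1.58%, and 0% passed as lower at an adjusted p of 0.05 over all loci. In whole tissue, fewer cells of a type and less RNA per cell cannot be told apart.

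In hippocampus, whose values did not choose the gene, Nfkbia did not pass the test. It was at 34.1, 21.8, 17.4 and 15.5 FPKM in fructose replicates 1 to 4, against 31.0, 24.3, 23.5 and 29.2 FPKM in control replicates 1 to 4. Fructose replicate 1 was the highest of the 8 libraries and the other 3 fructose libraries were the lowest, so the groups overlapped through replicate 1. The means were 22.2 ± 8.35 FPKM in fructose and 27.0 ± 3.67 FPKM in control (SD, n = 4 each). The log2 fold change was -0.33 ± 0.23 (SE), with a 95% interval of -0.86 to 0.21 (limma adjusted p = 0.9999, unadjusted p = 0.198). Without both replicate 1 libraries it was -0.48 ± 0.16 (interval -0.87 to -0.09, limma adjusted p = 1, unadjusted p = 0.0222). An unadjusted p under 0.05 with fructose lower was then found at 0.703% of loci. The groups did not overlap without replicate 1, with fructose lower, which held for 2.61% of loci. Because the other 3 fructose libraries were the lowest, this separation was certain once replicate 1 was left out and is no separate result. The test with all 8 libraries stands as the result for hippocampus. Without fructose replicate 1 alone the value was -0.55, and without fructose replicate 4 it was -0.18. Whether the fructose difference of Nfkbia is unequal between the regions was not tested.

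**Figure D1:**
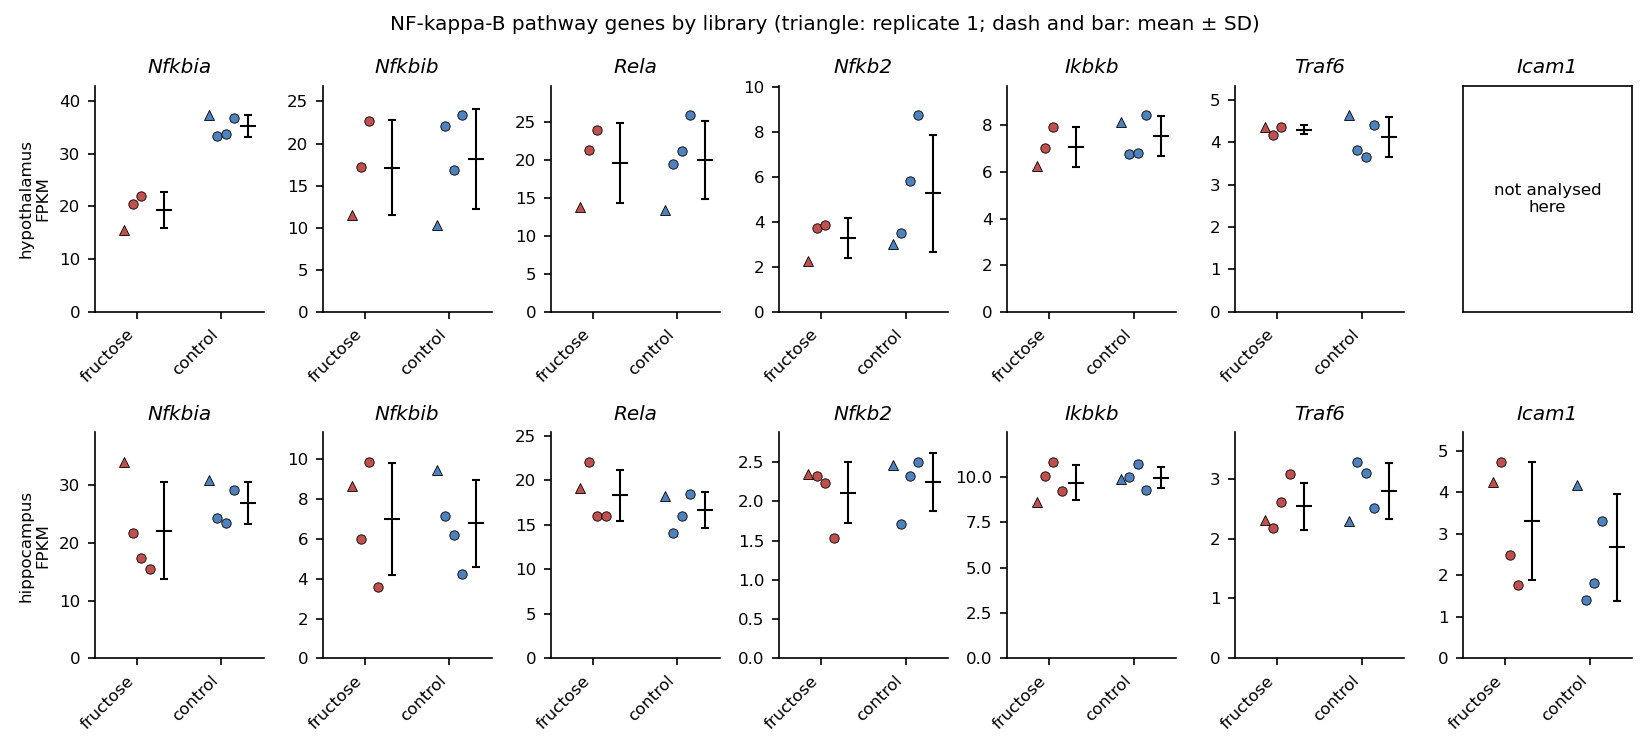
FPKM (vertical axis, linear from 0) of the 7 matched genes in each library, with hypothalamus above and hippocampus below and fructose left of control. Triangles are replicate 1, circles the other replicates, and the dash with its bar is the mean ± SD; in hypothalamus the 3 fructose libraries of Nfkbia end at 22.0 FPKM and the control libraries begin at 33.4 FPKM, while every other gene overlaps.

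Nfkbib, the related inhibitor IkappaB-beta, had overlapping groups in both regions. It was at 11.6, 17.2 and 22.7 FPKM in the hypothalamus of fructose rats, against 10.3, 22.0, 16.9 and 23.3 FPKM in controls. The replicate 1 library was the lowest of each group, and the log2 fold change was -0.06 ± 0.32 (SE). In hippocampus Nfkbib was at 8.64, 5.99, 9.85 and 3.57 FPKM in fructose libraries, against 9.45, 7.16, 6.21 and 4.25 FPKM in control libraries. The log2 fold change there was 0.01 ± 0.31 (95% interval -0.69 to 0.71, limma adjusted p = 0.9999), an interval wide enough to hold the size seen for Nfkbia in hippocampus.

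Of the transcription factor subunits, Rela (p65, the main activating subunit) had overlapping groups in both regions. It was at 13.8, 21.3 and 24.0 FPKM in the hypothalamus of fructose rats, against 13.5, 19.4, 21.1 and 25.9 FPKM in controls. The ranges all but coincided and the log2 fold change was -0.02 ± 0.26 (SE), too wide to show that the levels were the same. In hippocampus Rela was at 19.2, 22.1, 16.0 and 16.0 FPKM in fructose libraries, against 18.2, 14.1, 16.0 and 18.4 FPKM in control libraries. Fructose replicate 2 was the highest, and the log2 fold change was 0.12 ± 0.14 (95% interval -0.20 to 0.44, limma adjusted p = 0.9999).

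Nfkb2, which encodes p100 and its processed form p52 of the non-canonical branch, was at 2.28, 3.72 and 3.89 FPKM in the hypothalamus of fructose rats, against 3.02, 3.54, 5.82 and 8.75 FPKM in controls. Control replicates 3 and 4 were above all fructose libraries and control replicates 1 and 2 lay among them. The log2 fold change was -0.48 ± 0.33 (SE), and -0.24 without control replicate 4. In hippocampus Nfkb2 was at 2.35, 2.32, 2.24 and 1.53 FPKM in fructose libraries, against 2.47, 1.71, 2.32 and 2.50 FPKM in control libraries. The groups overlapped and the log2 fold change was -0.07 ± 0.15 (95% interval -0.40 to 0.27, limma adjusted p = 0.9999); it was 0.03 without fructose replicate 4.

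The kinase and adaptor showed small differences. Ikbkb was at 6.26, 7.04 and 7.94 FPKM in the hypothalamus of fructose rats, against 8.17, 6.76, 6.82 and 8.43 FPKM in controls, with a log2 fold change of -0.08 ± 0.14 (SE). In hippocampus Ikbkb was at 8.64, 10.04, 10.8 and 9.20 FPKM in fructose libraries, against 9.89, 9.98, 10.7 and 9.26 FPKM in control libraries. Its hippocampal log2 fold change was -0.04 ± 0.10 (95% interval -0.28 to 0.19, limma adjusted p = 0.9999), the narrowest interval of the 7 genes, and it was 0.01 without fructose replicate 1.

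Traf6, the ubiquitin ligase downstream of interleukin-1 and Toll-like receptors, was at 4.36, 4.18 and 4.34 FPKM in the hypothalamus of fructose rats, against 4.63, 3.81, 3.64 and 4.40 FPKM in controls. The fructose values fell inside the control range and the log2 fold change was 0.05 ± 0.13 (SE). In hippocampus Traf6 was at 2.31, 2.17, 2.60 and 3.07 FPKM in fructose libraries, against 2.29, 3.28, 3.09 and 2.52 FPKM in control libraries. The groups overlapped, with a log2 fold change of -0.10 ± 0.14 (95% interval -0.42 to 0.22, limma adjusted p = 0.9999).

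Icam1 was at 4.25, 4.73, 2.48 and 1.77 FPKM in the hippocampus of fructose rats, against 4.16, 1.40, 1.81 and 3.31 FPKM in controls. Control replicates 2 and 3 were the lowest together with fructose replicate 4, and the log2 fold change was 0.24 ± 0.32 (95% interval -0.49 to 0.97, limma adjusted p = 0.9999). The symbol has 2 loci in this table, so reads could be split between them and the value is uncertain. Leaving out single libraries gave log2 fold changes from 0.06 to 0.43. Control replicates 2 and 3 were also the lowest libraries in summed meningeal fibroblast markers (50.3 and 44.7 FPKM) and in summed endothelial markers (155 and 159 FPKM); their part in the Icam1 values was not tested.

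Of the 7 genes tested in hippocampus 0 had groups that did not overlap (0.668% of all loci), 0 passed at an adjusted p of 0.05 by limma, where 0% of 11385 loci passed, and 0 had an unadjusted p under 0.05, where 0.808% of loci did. In the plot of fold changes, Nfkbia was the most negative of the matched genes in each region. In hypothalamus this restates the difference for which it was chosen. In hippocampus its 95% interval (-0.86 to 0.21) overlapped that of every other gene tested, so its place there is uncertain.

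**Figure D2:**
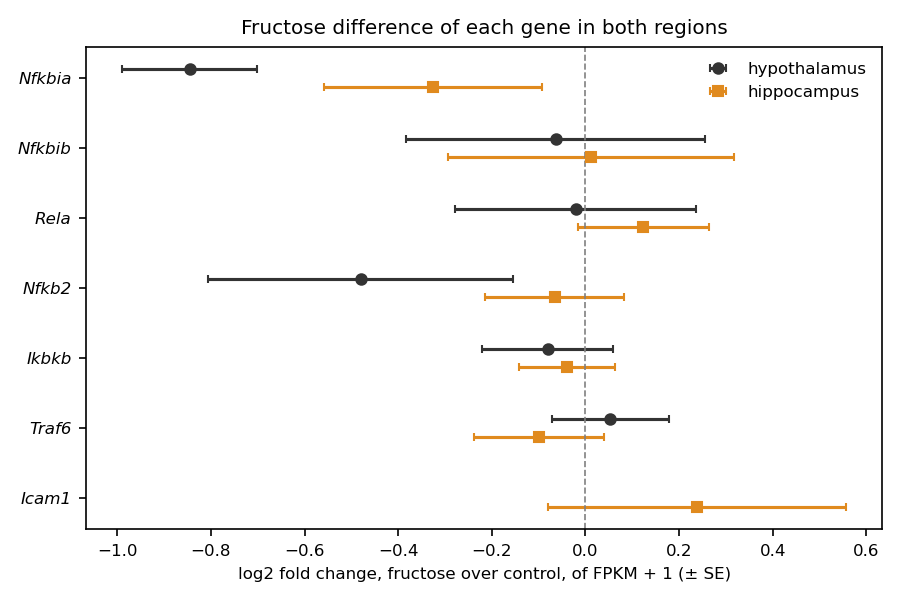
Log2 fold change of FPKM + 1, fructose over control (horizontal axis, bars ± SE of the model), for each gene in hypothalamus (circles) and hippocampus (squares). Nfkbia is at -0.85 in hypothalamus and -0.33 in hippocampus; of the other genes, hypothalamic Nfkb2 at -0.48 ± 0.33 is the only value more than 1 SE away from 0.

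The order of levels differed between the groups in hypothalamus. At the top this restates the Nfkbia difference for which the gene was chosen. In control rats Nfkbia came first, above Rela (19.97 ± 5.13 FPKM) with no overlap of their library values, followed by Nfkbib (18.1 ± 5.92 FPKM), which overlapped Rela. Ikbkb (7.55 ± 0.876 FPKM) lay clear below Nfkbib and overlapped Nfkb2 (5.28 ± 2.61 FPKM), which overlapped Traf6 (4.12 ± 0.470 FPKM). In fructose rats Rela (19.7 ± 5.27 FPKM), Nfkbia and Nfkbib (17.2 ± 5.58 FPKM) overlapped in turn, and Ikbkb (7.08 ± 0.840 FPKM), Traf6 (4.30 ± 0.103 FPKM) and Nfkb2 (3.30 ± 0.880 FPKM) followed without overlap.

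In hippocampus Nfkbia was first in both groups. In fructose rats its range overlapped that of Rela (18.3 ± 2.90 FPKM), and in control rats it lay above Rela (16.7 ± 2.04 FPKM). Ikbkb came next, at 9.68 ± 0.954 FPKM in fructose and 9.96 ± 0.592 FPKM in control libraries, and overlapped Nfkbib in both groups (7.01 ± 2.80 and 6.77 ± 2.16 FPKM). Icam1, Traf6 and Nfkb2 came last, at 2.11 to 3.31 FPKM in fructose and 2.25 to 2.79 FPKM in control libraries by mean, and overlapped each other; in fructose libraries Icam1 also overlapped Nfkbib.

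Because IkappaB-alpha binds Rela-containing dimers, the FPKM of Nfkbia was divided by that of Rela within each library. The quotient was 1.13, 0.966 and 0.920 in the hypothalamus of fructose rats, against 2.77, 1.72, 1.595 and 1.42 in controls. The groups did not overlap, and control replicate 1, which had the highest Nfkbia and the lowest Rela value of the controls, was far above the rest. In hippocampus it was 1.78, 0.986, 1.08 and 0.968 in fructose rats, against 1.70, 1.72, 1.47 and 1.59 in controls. Fructose replicate 1 was the highest hippocampal library and the other 3 fructose libraries were the lowest. In hypothalamus the quotient contains the values by which Nfkbia was chosen, so its separation there is no separate result. It was not tested in either region, and it compares transcripts, not proteins.

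**Figure D3:**
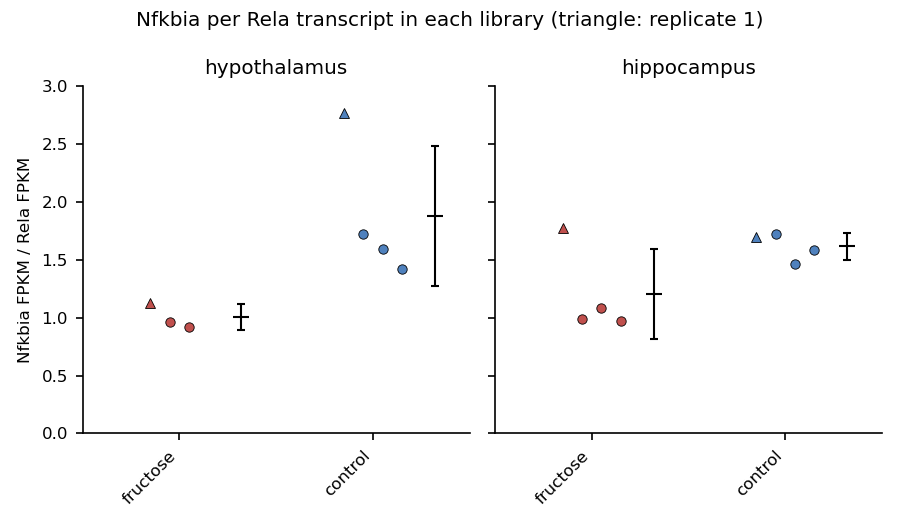
Nfkbia FPKM divided by Rela FPKM in each library (vertical axis, linear from 0), hypothalamus left and hippocampus right, with fructose left of control; triangles are replicate 1 and dash and bar are mean ± SD. Fructose libraries average 1.01 and control libraries 1.88 in hypothalamus, and 1.20 and 1.62 in hippocampus.

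The rest of the pathway was read from 86 further genes in 8 lists by role. In hypothalamus 74 were matched and 54 tested, of which 0 rose and 0 fell at an adjusted p of 0.05 by limma, where 0.0087% of all loci passed. Negative log2 fold changes were found for 32 of the 54, with a median of -0.07, against 48.5% negative and a median of 0.01 over all loci tested. Without both replicate 1 libraries, 29 of the 54 were negative with a median of -0.03, against 5940 negative of 11498 loci with a median of -0.01. At an unadjusted p under 0.05, which 3.14% of loci had, there were 2, Il1r1 and Ier3. In hippocampus 75 were matched and 53 tested, with 0 rising and 0 falling (0% of all loci), 0 at an unadjusted p under 0.05, and 39 of 53 positive with a median of 0.07, against 51.4% negative and a median of 0.00 over all loci; without replicate 1, 35 of 53 were positive (median 0.09).

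The ligands, which start the signal, were mostly under 1 FPKM. Of 8, 2 were tested in hypothalamus and 1 in hippocampus. Tnf has 3 loci in the hippocampus table and 2 in that of hypothalamus and was listed at 0 in hypothalamus fructose replicates 1 and 3 and control replicate 2, so its values (log2 fold change -1.38 ± 1.24 in hypothalamus and 0.31 ± 0.41 in hippocampus, SE) are uncertain. Ltb, lymphotoxin beta, was at 3.12 ± 0.706 FPKM in the hypothalamus of fructose rats and 3.42 ± 0.820 FPKM in controls.

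Of 11 receptor genes tested in hypothalamus 9 had a negative log2 fold change (median -0.16), and of 9 tested in hippocampus 8 had a positive one (median 0.24), with 0 passing in either region. Without replicate 1 the hypothalamic count was 6 of 11 negative (median -0.09) and the hippocampal count was 8 of 9 positive (median 0.28). Il1r1, the signalling receptor of interleukin-1, was at 1.65, 1.85 and 2.41 FPKM in the hypothalamus of fructose rats, against 2.86, 2.39, 3.60 and 3.06 FPKM in controls (log2 fold change -0.42 ± 0.16, limma adjusted p = 0.9998), and the groups met at 2.39 and 2.41 FPKM. In hippocampus Il1r1 was at 3.48, 5.96, 2.07 and 4.13 FPKM in fructose rats, against 2.90, 0.756, 1.35 and 5.52 FPKM in controls (log2 fold change 0.56 ± 0.42, limma adjusted p = 0.9999). Cd40, a receptor of antigen-presenting cells, was at 0.927 ± 0.515 FPKM in fructose and 1.53 ± 0.203 FPKM in control hypothalamus (n = 3 and n = 4). The groups did not overlap, with 1.34 FPKM as the highest fructose and 1.35 FPKM as the lowest control value. Such a separation with fructose lower was found for 1.58% of all loci tested in hypothalamus. Cd14, the lipopolysaccharide co-receptor, had a log2 fold change of -0.23 ± 0.15 in hypothalamus and 0.45 ± 0.35 in hippocampus. Hippocampal Il1r1 and Cd14 were lowest in control replicates 2 and 3, the libraries lowest in meningeal markers, and the part of those cells was not tested.

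Of 12 adaptors tested in hypothalamus 8 were negative (median -0.08) and of 11 in hippocampus 6 were positive (median 0.03), with 0 passing. Without replicate 1 these were 6 of 12 negative (median -0.01) and 6 of 11 positive (median 0.01). Traf3, which restrains the non-canonical branch, was at 12.01 ± 1.85 FPKM in fructose and 10.3 ± 0.217 FPKM in control hypothalamus (SD, n = 3 and n = 4). The lowest fructose library lay barely above the highest control library, a separation with fructose higher that 1.75% of loci had. Irak4, the first kinase of the interleukin-1 receptor complex, had log2 fold changes of -0.29 ± 0.16 in hypothalamus, where it has 2 loci, and -0.16 ± 0.16 in hippocampus; in hippocampus Traf2 was at 0.16 ± 0.14 and Irak2 at -0.16 ± 0.17. Among the kinases 4 of 7 were positive in hypothalamus (median 0.03) and 6 of 8 in hippocampus (median 0.05), with 0 passing; without replicate 1 they were 4 of 7 and 4 of 8 (median 0.01 in each region). Ikbke, a non-classical IkappaB kinase, was at 1.06 ± 0.362 FPKM in fructose and 2.06 ± 0.827 FPKM in control hypothalamus (log2 fold change -0.55 ± 0.25, limma adjusted p = 0.9998), with overlapping groups and 2 loci, and its hippocampal log2 fold change was 0.08 ± 0.20. Tab2, an adaptor of the kinase TAK1, was at 0.26 ± 0.18 in hypothalamus, and Map3k14, the kinase of the non-canonical branch, at 0.23 ± 0.16 in hippocampus on the same scale.

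Of the other IkappaB-type genes 3 were tested in each region, with 2 of 3 positive in hypothalamus (median 0.06) and 3 of 3 in hippocampus (median 0.20), and 0 passing. Without replicate 1 the hypothalamic direction turned, with 1 of 3 positive (median -0.10), and hippocampus had 3 of 3 positive (median 0.19). Bcl3, a nuclear IkappaB, had a hypothalamic log2 fold change of -0.30 ± 0.28; Nkiras1 and Nkiras2, small GTPase-like proteins that bind IkappaB, had 0.24 ± 0.18 and 0.20 ± 0.13 in hippocampus. Of 7 ubiquitin editors 4 were positive in hypothalamus (median 0.01) and 3 in hippocampus (median -0.06), with 0 passing; without replicate 1 they were 3 in hypothalamus (median -0.05) and 2 in hippocampus (median -0.03). The ligase Itch and its partner Rnf11 were at 0.15 ± 0.24 and -0.13 ± 0.24 in hypothalamus, and in hippocampus Rnf11 was at 0.17 ± 0.19 and the deubiquitinase Otud7b at -0.14 ± 0.18.

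The targets did not share a direction in hypothalamus, where 6 of 12 were positive (median -0.03), while 12 of 14 were positive in hippocampus (median 0.09), with 0 passing in either. Without replicate 1 the hypothalamic median turned to 0.04, again with 6 of 12 positive, and 11 of 14 were positive in hippocampus (median 0.14). Ier3, an early response gene induced by NF-kappa-B, had the second largest hypothalamic difference in size of the 54 genes after Tnf. It was at 13.5, 6.31 and 13.9 FPKM in the hypothalamus of fructose rats, against 27.1, 14.1, 21.2 and 19.1 FPKM in controls (log2 fold change -0.84 ± 0.31, 95% interval -1.56 to -0.12, limma adjusted p = 0.9998). The highest fructose value lay just under the lowest control value, a separation with fructose lower that 1.58% of loci had. In hippocampus Ier3 was at 18.4, 24.9, 9.76 and 5.25 FPKM in fructose rats, against 14.7, 3.30, 4.52 and 13.5 FPKM in controls (0.66 ± 0.57, limma adjusted p = 0.9999), with broad overlap. The chemokine Ccl5 had a log2 fold change of -0.51 ± 0.48 in hypothalamus and 0.52 ± 0.39 in hippocampus.

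**Figure D4:**
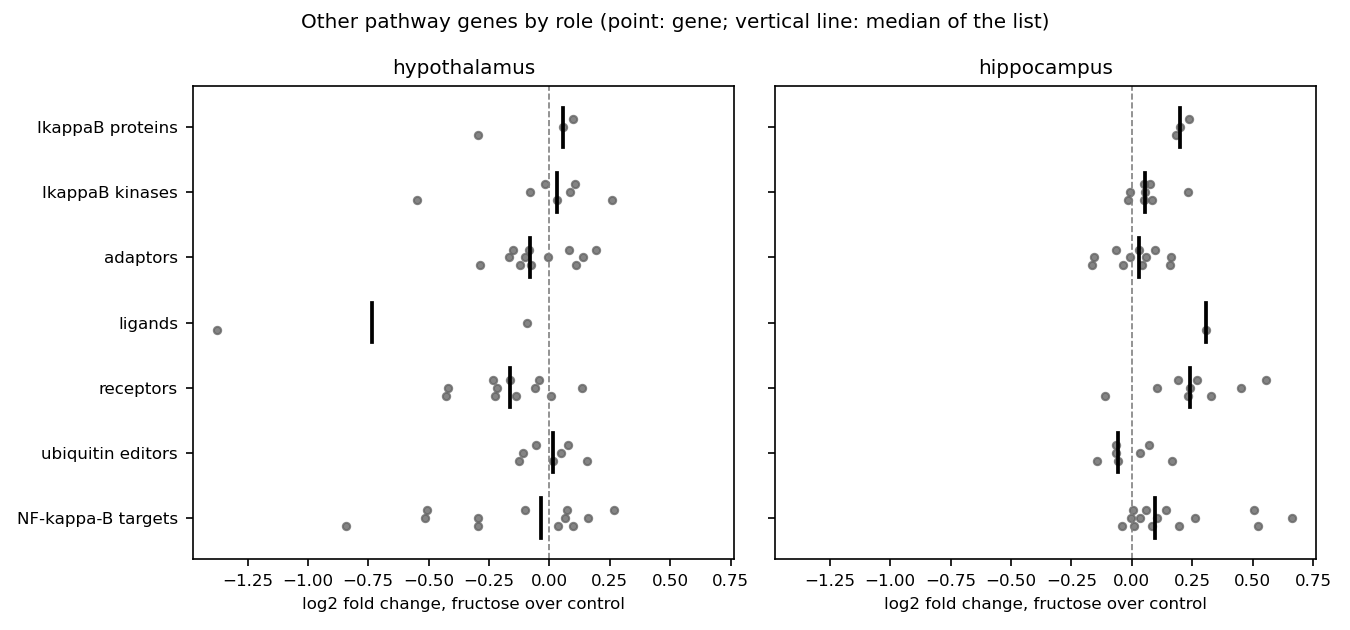
Log2 fold change, fructose over control, of FPKM + 1 (horizontal axis) of each further pathway gene tested, by role, with hypothalamus left and hippocampus right; the vertical line is the median of the list. Medians lie between -0.16 and 0.06 for the 6 lists of hypothalamus other than the ligands (-0.74) and between -0.06 and 0.24 for those of hippocampus other than the single ligand (0.31).

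The genes whose library-to-library pattern was most like that of Nfkbia were ranked by the lower of the Pearson correlations in hypothalamus (7 libraries) and hippocampus (8 libraries) on log2(FPKM + 1), over 8238 symbols with a single tested locus in each table. The first was C1qa, a chain of the complement component C1q made by microglia, with r = 0.9 in hypothalamus and 0.855 in hippocampus. The next 4 were LOC500300 (0.808 and 0.925), the spliceosomal isomerase Ppil1 (0.89 and 0.764), the alkaline phosphatase Alpl (0.791 and 0.752) and Klf2, a flow-sensitive transcription factor of endothelium (0.971 and 0.735). The ranking used the libraries in which Nfkbia differs between groups, so a like difference in these genes is part of how they were chosen and is no separate result. C1qa was at 46.4, 67.2 and 59.8 FPKM in the hypothalamus of fructose rats, against 73.9, 69.7, 80.6 and 83.2 FPKM in controls. Other microglial markers did not share its direction there, and 5 of the 8 listed were positive (median 0.08). In hippocampus C1qa was at 49.05 ± 20.2 FPKM in fructose and 52.9 ± 6.41 FPKM in control libraries (SD, n = 4 each). Its log2 fold change there was -0.20 ± 0.29 (SE). Klf2 was at 18.7, 25.3 and 23.2 FPKM in fructose hypothalamus, against 38.3, 30.5, 35.8 and 36.8 FPKM in controls. In hippocampus Klf2 was at 15.1 ± 8.36 FPKM in fructose and 16.3 ± 11.3 FPKM in control libraries (SD, n = 4 each), a log2 fold change of -0.06 ± 0.53.

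Markers of vessel and meningeal cells were mostly negative in the hypothalamus of fructose rats. Of 9 endothelial markers tested 8 were negative (median log2 fold change -0.30), and the 9 matched of 10 summed to 104 to 134 FPKM per fructose library against 129 to 145 FPKM per control library. Of 9 meningeal fibroblast markers tested 9 were negative (median -1.48), and all 10 summed to 47.3 to 209 FPKM in fructose against 203 to 371 FPKM in control, with Col1a2 at 0 in every library. Of 8 mural markers 5 were negative (median -0.59, sums 236 to 426 against 351 to 694 FPKM), and of 8 microglial markers 3 (median 0.08, sums 210 to 292 against 269 to 294 FPKM). Of 8 glucocorticoid-responsive genes 6 were negative (median -0.11, sums 122 to 179 against 163 to 204 FPKM) and of 7 immediate early genes 6 (median -0.41, sums 66.6 to 119 against 100 to 130 FPKM). Apart from Col1a2, no marker of these 6 lists was at 0 in all hypothalamus libraries. The part of these cells and responses in the Nfkbia values was not tested. Without replicate 1 the endothelial, meningeal and mural lists had 8 of 9, 9 of 9 and 5 of 8 negative (medians -0.22, -1.72 and -0.55), the glucocorticoid-responsive and immediate early lists 6 of 8 and 6 of 7 (medians -0.15 and -0.30), and the microglial list 2 of 8 (median 0.17).

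The same lists were read in hippocampus, where the part of these cells and responses in the Nfkbia values was likewise not tested. The meningeal median was 1.35 (9 of 9 positive; sums 184 to 681 FPKM in fructose against 44.7 to 447 FPKM in control), the endothelial median 0.13 (8 of 9 positive; 173 to 224 against 155 to 228 FPKM), the mural median 0.15 (6 of 7 positive; 359 to 1166 against 152 to 1682 FPKM) and the microglial median -0.05 (1 of 8 positive; 131 to 204 against 170 to 191 FPKM). Glucocorticoid-responsive genes had a median of 0.11 (7 of 8 positive; 145 to 280 against 176 to 192 FPKM) and immediate early genes -0.02 (3 of 7 positive; 96.8 to 212 against 117 to 271 FPKM). Without replicate 1 the glucocorticoid-responsive list had 4 of 8 positive (median 0.00) and the immediate early list turned to 7 of 7 positive (median 0.18), while the meningeal, endothelial, mural and microglial medians were 1.43, 0.15, 0.19 and -0.07. Astrocyte, neuron and oligodendrocyte markers had medians of 0.27, 0.00 and -0.01 in hypothalamus and -0.06, 0.01 and -0.04 in hippocampus; without replicate 1 these were 0.50, -0.05 and 0.10 in hypothalamus and -0.11, -0.01 and -0.27 in hippocampus. Of 7 blood leukocyte markers 2 were tested in each region (medians -0.04 and 0.44, and 0.07 and 0.57 without replicate 1); they summed to 3.87 to 5.92 FPKM in fructose against 2.08 to 12.7 FPKM in control hypothalamus and to 5.95 to 14.6 against 2.15 to 9.53 FPKM in hippocampus.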

How the data were processed

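Per the labels' protocols, libraries of poly-A selected RNA were demultiplexed with CASAVA 1.8.2 after Illumina sequencing. The authors deposited FPKM per locus and library with a status flag; per the submitters' processing notes TopHat, Bowtie, Cufflinks, Cuffdiff, TopHat2, Bowtie2 and rn5 were used, with versions not given in the sources used here. All loci reported for the 10 genes had the status OK in every library. FPKM keeps no depth, and how further scaling between libraries was done is not given in the sources used here.

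In each region limma 3.58.1 (R 4.3.3) was applied to log2(FPKM + 1) of the loci averaging 1 FPKM or more (moderated test, trended prior variance, group as the only term, Benjamini-Hochberg adjustment over all loci at 0.05), a step tested on simulated data. A fold change on this scale understates that of low genes. The regions were fitted separately. Fold changes are fructose over control. FPKM means carry the SD and log2 fold changes the model's SE. The genes, lists and alternatives were chosen with earlier results of these data known. The genes named are the 10 listed, from each of 8 pathway lists the 2 other tested genes with the largest absolute log2 fold change in each region, and the 5 most like Nfkbia; the values of the lists without both replicate 1 libraries were added after seeing the data, and other genes named as markers or beside counts were chosen after their values were seen.

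Replicate numbers come from the labels. Deviations from group means of same-numbered libraries correlated at 0.848, 0.488 and 0.456 in hypothalamus and 0.892, 0.208, 0.481 and 0.41 in hippocampus, all above 0.1. A model with a replicate block was therefore fitted as an alternative, while the main model does not pair libraries. Without replicate 1 the values were 0.269 and 0.0364, and -0.226, 0.404 and 0.0882, so they were no longer all above 0.1.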

Additional observations from a re-analysis of the deposited data

Results flagged for a closer look

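Within groups of 4 libraries, 76 sets of values of the genes named were screened for a single library far from the rest, and 4 stood out; chance gives about 1 in 20. Nfkb2 was at 1.53 FPKM in hippocampus fructose replicate 4, against 2.24 to 2.35 FPKM in the other fructose libraries. Nkiras1 was at 15.8 FPKM in hypothalamus control replicate 1, against 2.90 to 4.92 FPKM in the other controls. Itch was at 15.0 FPKM in the same library, against 8.46 to 9.24 FPKM, and at 19.1 FPKM in hippocampus fructose replicate 4, against 12.8 to 13.0 FPKM.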

How the results depend on the processing

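Nfkbia had a negative log2 fold change under all 15 alternatives run in hypothalamus (-0.94 to -0.70 leaving out 1 library each, -0.88 to -0.68 under the others) and all 16 in hippocampus (-0.55 to -0.18, and -0.48 to -0.32), where its adjusted p ran from 0.9997 to 1. In hypothalamus this sign is no separate result, because Nfkbia was chosen for groups that do not overlap. Leaving out libraries, changing the filter or the pseudocount, summing loci or the replicate block could not have turned it. Of the small hippocampal values, Nfkbib ran from -0.16 to 0.26, Nfkb2 from -0.15 to 0.03 and Ikbkb from -0.091 to 0.007 leaving out 1 library each, and Ikbkb turned to 0.005 without both replicate 1 libraries. In hypothalamus Nfkbib ran from -0.30 to 0.18 and Rela from -0.19 to 0.20 leaving out 1 library each. Hypothalamic Ikbkb stayed negative in those fits (-0.156 to -0.006) but turned to 0.030 without both replicate 1 libraries. The hypothalamus count of loci past the adjusted threshold was 1; it was 2 with the replicate block (759 against 361 loci at an unadjusted p under 0.05), 2 without the filter on low values, 2 without both replicate 1 libraries, 0 at a mean of at least 5 FPKM, and 0 to 2 leaving out 1 library each (0 without fructose replicate 2 or 3, 2 without control replicate 1, 3 or 4). The hippocampus count of 0 (92 at an unadjusted p under 0.05) became 1 without control replicate 3 and was 0 leaving out any other library, and also with the replicate block (203 at an unadjusted p under 0.05), which gave Nfkbia -0.33 ± 0.17 (limma adjusted p = 0.9997) and changed no call among the genes tested in hippocampus. The cause was not tested. Depth is unknown, so no detection limit can be given.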

Other observations

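Some further pathway genes separated the replicate 1 libraries of hypothalamus from the others, in fructose and control alike; they were chosen after their values were seen. Nkiras1 was at 16.1 FPKM in fructose replicate 1 and 15.8 FPKM in control replicate 1, against 2.96 and 3.82 FPKM in the other fructose libraries and 2.90 to 4.92 FPKM in the other controls. Bcl2l1, the anti-apoptotic gene for Bcl-xL, was at 22.9 and 17.3 FPKM in the same replicate 1 libraries, against 56.8 and 58.8 FPKM in the other fructose libraries and 49.4 to 58.9 FPKM in the other controls. Nfkbia did not follow this split in controls, where replicate 1 was at 37.3 FPKM and the others at 33.4 to 36.8 FPKM. In fructose hypothalamus Nfkbia was lowest in replicate 1, at 15.6 FPKM, against 20.5 and 22.0 FPKM in the others. In hippocampus the replicate 1 libraries held the highest Nfkbia values, at 34.1 FPKM in fructose and 31.0 FPKM in control.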
